A study of Mus musculus with 2 samples.

Results

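*Gdnf*, *Bdnf* and *Ntf3*, which encode secreted neurotrophic factors, and *Ret*, *Gfra1*, *Gfra2*, *Ngfr* and *Lifr*, which encode receptors for such factors, were followed by symbol through 2 single-cell RNA-seq libraries of mouse skeletal muscle. All 8 were listed among the 28001 features of both libraries. The mice were C57BL/6J and carried Hic1CreERT2/CreERT2 together with Rosa26LSLtdTomato/tdTomato, so that tamoxifen (TAM) switched on tdTomato in cells that used *Hic1* at that time and in their progeny. For E10-P56, dams were gavaged with 7.5 mg of TAM at embryonic day 10. Per the methods, dams for tracing into adulthood also received progesterone, and their fetuses were delivered by caesarean section and cross-fostered. For the adult pulse, animals were given TAM at 8 weeks, in 5 daily doses of 2.5 mg. The labels give collection at postnatal day 56 for both. The text of the study gives a later day for an adult pulse that it cites to earlier work, and whether that is this library is not stated. Sorted tdTomato+ cells of tibialis anterior muscles, pooled from a pair of hindlimbs per the methods, were captured on 10x Chromium. The methods give these steps for muscle at postnatal day 56 without naming a labelling time. There was 1 library per labelling time, so no test between them was possible, and every interval given here is a 95% interval that covers counting error only.

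The libraries held 67460919 and 69153173 UMIs (counted RNA molecules) in 8236 and 9195 barcodes, E10-P56 first. A floor of 1500 UMIs and a ceiling of 10% mitochondrial UMIs per cell left 6087 and 8567 cells with median depths of 7648 and 7344 UMIs. The libraries shared 15 barcodes. Cells were placed by marker gates that held none of the genes described here. A cell entered a gate when at least 3 markers had a UMI and its score was at least 1.5. The score was the mean over the markers of how many SD each lay above its mean in all kept cells. Fibroblasts were the remaining cells with at least 4 of 8 general fibroblast markers, and were split into 7 subsets by the highest subset score. Such a subset is a range of scores and not a cell type, since 1676 of 4264 and 2536 of 6673 fibroblasts lay within 0.5 SD of another subset.

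The nerve gates were placed with marker genes, so the levels of those markers describe the gates and are no check of them. *Sox10*, the transcription factor of the Schwann lineage, stood at 291 CPM (UMIs per 1000000 UMIs of the population) in 138 Schwann-like cells of E10-P56 and at 267 CPM in 17 of the adult pulse, against 1 UMI in the fibroblasts of each library. *Cldn1*, a tight junction gene of the perineurial sheath, stood at 989 and 952 CPM in 173 and 38 perineurial-like cells. *Sox9*, a marker of endoneurial fibroblasts, stood at 696 and 471 CPM in 35 and 100 nerve fibroblast-like cells, against 26.1 and 23.4 CPM in fibroblasts. The gates were not free of each other's RNA. All 11 Schwann markers had UMIs in perineurial-like cells, with a summed level of 344 and 676 CPM against 35766 and 17852 CPM in Schwann-like cells, and 7 of 8 perineurial markers had UMIs in Schwann-like cells, at 1702 and 2026 CPM against 5149 and 4954 CPM in perineurial-like cells. In nerve fibroblast-like cells the summed Schwann markers reached 24.5 and 41.1 CPM. The part that this RNA plays in the values below was not tested. The study set aside contaminating cell types and cycling cells, so the Schwann-like, endothelial-like and cycling cells described here are cells it left out. Their tdTomato levels were 838 and 1429 CPM for Schwann-like, 1962 and 2230 CPM for endothelial-like and 890 and 1077.5 CPM for cycling cells. Fibroblasts stood at 1125 and 2050 CPM.

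Glial cell line-derived neurotrophic factor, the product of *Gdnf*, binds a co-receptor anchored in the membrane, the product of *Gfra1*, and the pair then engages the tyrosine kinase RET. The product of *Gfra2* serves the related factor neurturin in the same way, and either co-receptor can also act without RET, through the adhesion molecule NCAM. The neurotrophins encoded by *Bdnf* and *Ntf3* signal through TRK kinases and share a low-affinity receptor, p75, the product of *Ngfr*. The *Lifr* product pairs with gp130 (*Il6st*) and answers leukemia inhibitory factor and, with *Cntfr*, ciliary neurotrophic factor. Muscle is a classical source of such factors for motor and sensory axons, and the intramuscular nerve holds Schwann cells around axons, endoneurial fibroblasts between them and a perineurial sheath outside.

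The stretches of DNA just before the starts of *Gfra1*, *Ngfr* and *Lifr* are shown because the first and second of these genes were higher than in fibroblasts in nerve fibroblast-like and perineurial-like cells, while *Lifr* peaked in a fibroblast subset. They are the 250 bases before a RefSeq start on GRCm38.p6. Capitals mark the SOX core motif ACAAT or its reverse ATTGT and the GC box GGGCGG or its reverse CCGCCC, 2 motifs that cannot overlap each other.
Gfra1, chr19:58455399-58455648, minus strand: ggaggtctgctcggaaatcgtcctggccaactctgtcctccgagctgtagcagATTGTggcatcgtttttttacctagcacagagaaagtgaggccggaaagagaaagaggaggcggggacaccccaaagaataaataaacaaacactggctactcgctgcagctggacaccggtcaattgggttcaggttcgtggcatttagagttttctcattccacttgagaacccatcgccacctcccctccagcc
Ngfr, chr11:95587699-95587948, minus strand: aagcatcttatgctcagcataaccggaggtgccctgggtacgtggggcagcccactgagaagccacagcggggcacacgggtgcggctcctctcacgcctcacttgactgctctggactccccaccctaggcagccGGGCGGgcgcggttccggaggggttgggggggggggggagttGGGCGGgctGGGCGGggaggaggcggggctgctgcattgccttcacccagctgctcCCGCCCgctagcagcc
Lifr, chr15:7129322-7129571, plus strand: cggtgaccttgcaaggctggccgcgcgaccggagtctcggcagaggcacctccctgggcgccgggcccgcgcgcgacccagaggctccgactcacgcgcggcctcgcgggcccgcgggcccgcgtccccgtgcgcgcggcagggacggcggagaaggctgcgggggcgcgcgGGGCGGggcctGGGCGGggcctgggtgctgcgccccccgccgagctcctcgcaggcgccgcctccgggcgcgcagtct

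The *Gfra1* stretch held 1 SOX core and 0 GC boxes, and was 52.4% G and C, the same as the median of the 32851 such stretches in RefSeq. The *Ngfr* stretch held 4 GC boxes and 0 SOX cores. The *Lifr* stretch, before the first of the RefSeq starts matched for that gene, held 2 GC boxes and 43 CpG dinucleotides, against a median of 6. By the GENCODE spans given below, the *Lifr* and *Gfra1* stretches lie inside their genes and not before them. Of all stretches, 27.7% held a SOX core and 32.7% a GC box, so a match by itself does not set a gene apart. RefSeq stretches were matched for 6 of the 8 genes, and for *Ret* and *Gfra2* none was matched.

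The 8 genes lie on 6 chromosomes of GRCm38 per GENCODE: *Gdnf* at chr15:7810846-7837575 and *Lifr* at chr15:7090614-7197489, both on the plus strand, *Ret* at chr6:118151745-118197718 and *Ntf3* at chr6:126101412-126166910, both on the minus strand, *Gfra1* at chr19:58235604-58455909 (minus), *Gfra2* at chr14:70890120-70979838 (plus), *Bdnf* at chr2:109674700-109727007 (plus) and *Ngfr* at chr11:95568818-95587735 (minus). Gm16277 lies on the opposite strand across *Gfra1*, and Gm45346 across *Bdnf*. No other annotated gene overlaps any of the 8.

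**Figure D1:**
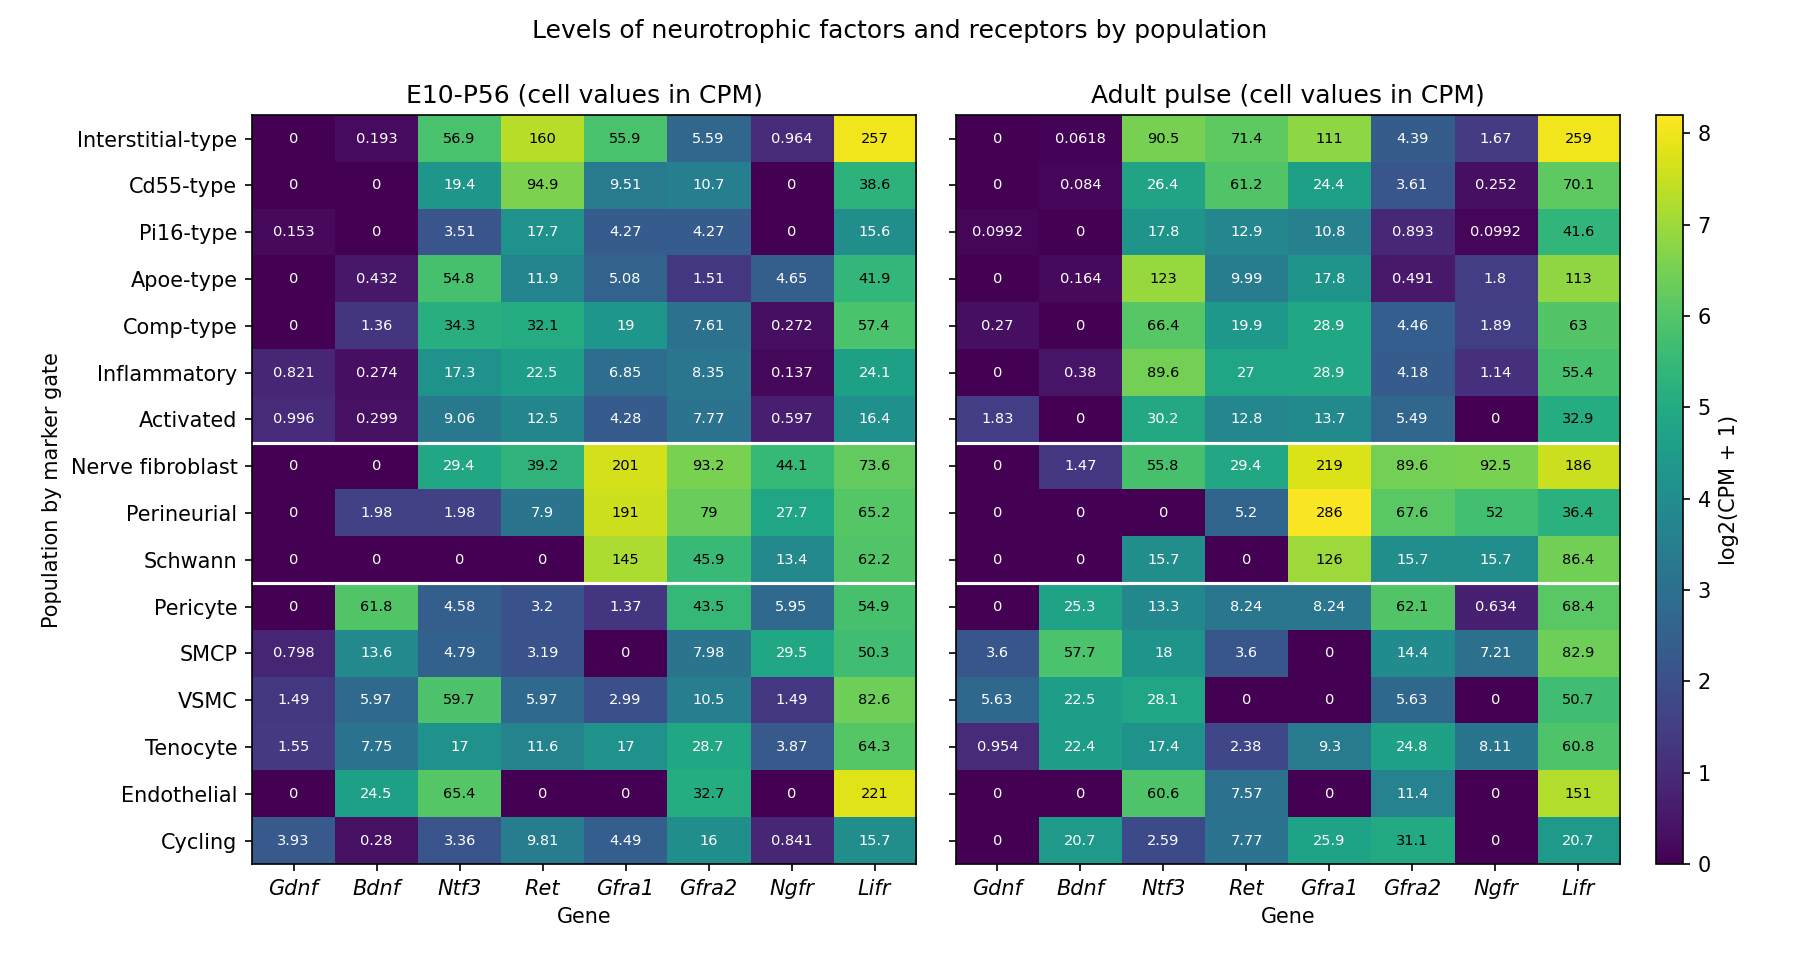
Level of each of the 8 genes (columns) in 16 populations placed by marker gates (rows), for E10-P56 on the left and the adult pulse on the right. Each cell prints CPM, a 0 stands for 0 UMIs, and colour is log2(CPM + 1). *Gfra1* is highest in the 3 rows of nerve gates, *Gfra2* and *Ngfr* in the nerve fibroblast row, *Ret* and *Lifr* in the interstitial-type row and *Bdnf* in the pericyte row of E10-P56 and the smooth muscle cell progenitor (SMCP) row of the adult pulse.

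*Gdnf* transcripts were nearly absent from both libraries. There were 38 UMIs in 28 cells of E10-P56 and 12 UMIs in 11 cells of the adult pulse. Fibroblasts held 17 of these UMIs in 14 cells and 5 in 4 cells, which is 0.362 (0.211 to 0.580) and 0.0902 (0.0293 to 0.211) CPM. In E10-P56, 10 of the 17 lay in the activated subset and 6 in the inflammatory subset. The cycling cells of E10-P56, the deepest population at a median of 35891 UMIs, held 14 UMIs in 7 cells, or 3.93 CPM (2.15 to 6.59).

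No *Gdnf* UMI was found in interstitial-type, Cd55-type or Apoe-type fibroblasts, in any nerve gate, in pericyte-like cells or in endothelial-like cells of either library. A count of 0 allows up to 2.96 CPM in the perineurial-like and 2.87 CPM in the Schwann-like cells of E10-P56 (3 UMIs of the total), and 14.7 CPM in its nerve fibroblast-like cells. In the adult pulse the limits were 15.6, 23.6 and 4.41 CPM in the same order of gates. For interstitial-type fibroblasts of the adult pulse, with 2102 cells, the limit was 0.185 CPM. *Gdnf* was therefore not detectable at this depth in the populations where its co-receptor gene was highest.

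*Bdnf*, the gene of brain-derived neurotrophic factor, was found mainly outside the fibroblasts. The libraries held 202 and 174 UMIs of it, of which 7.43% and 2.30% lay in fibroblasts, at 0.319 (0.179 to 0.527) and 0.0722 (0.0197 to 0.185) CPM. Pericyte-like cells stood at 61.8 CPM (51.8 to 73.1, 135 UMIs in 94 of 463 cells) in E10-P56 and at 25.3 CPM (18.1 to 34.5, 40 UMIs in 26 of 419 cells) in the adult pulse. Both libraries therefore put *Bdnf* far higher in pericyte-like cells than in fibroblasts, 193-fold and 351-fold. The first level was 94.4 CPM when cells were placed by clustering. After each cell was thinned to 1500 UMIs, 9.94% (7.37 to 13.0) and 3.10% (1.66 to 5.25) of pericyte-like cells had a *Bdnf* UMI, against 20.3% and 6.21% unthinned. In fibroblasts the thinned share was 0.0704% and 0%, although their median depths of 8812.5 and 7696 UMIs were above the 3390 and 3370 UMIs of pericyte-like cells.

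Related vascular cells carried *Bdnf* too. Smooth muscle cell progenitor (SMCP)-like cells stood at 13.6 CPM (7.90 to 21.7) in E10-P56 and at 57.7 CPM (33.0 to 93.7) in the adult pulse, the second on 16 UMIs in 9 cells. Vascular smooth muscle cell (VSMC)-like cells stood at 5.97 CPM (3.09 to 10.4) and, on 4 UMIs, 22.5 CPM (6.13 to 57.6). The order of these populations thus differed between the libraries, and in the adult pulse the intervals of pericyte-like, SMCP-like and VSMC-like cells overlapped. Tenocyte-like cells, which were placed by tendon genes, stood at 7.75 CPM (3.71 to 14.2) and 22.4 CPM (18.1 to 27.4), and the second value came from 94 UMIs in 44 of 535 cells, with up to 16 in a single cell. The nerve gates held 0, 2 and 0 UMIs (nerve fibroblast-like, perineurial-like and Schwann-like) in E10-P56 and 1, 0 and 0 in the adult pulse.

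*Ntf3*, the gene of neurotrophin-3, was the one ligand gene of the 3 that fibroblasts carried broadly. Pooled fibroblasts stood at 26.9 CPM (25.5 to 28.5) in E10-P56 and 62.6 CPM (60.5 to 64.7) in the adult pulse, and held 81.9% and 85.4% of all *Ntf3* UMIs. Fibroblasts held 75.1% and 81.3% of the UMIs of all genes, so these shares lay close to the base. Among the subsets, Apoe-type fibroblasts, scored on *Apoe*, *Cxcl13*, *Fgf10* and *Cxcl12*, stood at 54.8 (50.1 to 59.8) and 122.7 (114.0 to 131.8) CPM. Interstitial-type fibroblasts, scored on *Col15a1*, *Hmcn2*, *Smoc2*, *Penk*, *Hsd11b1* and *Lum*, stood at 56.9 (50.6 to 63.7) and 90.5 (85.9 to 95.2) CPM. These 2 subsets did not differ beyond counting error in E10-P56, and Apoe-type was the higher in the adult pulse. Pi16-type fibroblasts were the lowest subset, at 3.51 (2.23 to 5.27) and 17.8 (15.3 to 20.6) CPM.

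In the nerve, the *Ntf3* level differed by type of cell. Nerve fibroblast-like cells stood at 29.4 CPM (10.8 to 64.0) on 6 UMIs and at 55.8 CPM (39.5 to 76.6) on 38 UMIs, 1.09-fold and 0.892-fold of fibroblasts, and the first of these ran from 13.0 CPM at a limit of 5% mitochondrial UMIs to 59.1 CPM with clustering. Perineurial-like cells held 2 and 0 UMIs in 173 and 38 cells, and Schwann-like cells 0 and 2. Endothelial-like cells reached 65.4 CPM (28.2 to 129) on 8 UMIs and 60.6 CPM (34.6 to 98.4) on 16 UMIs. VSMC-like cells of E10-P56 stood at 59.7 CPM (49.5 to 71.4) on 120 UMIs in 83 of 217 cells, and the 24 such cells of the adult pulse at 28.1 CPM (9.14 to 65.7) on 5 UMIs.

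*Ret*, the gene of the signalling receptor for the GDNF family, was found mainly in fibroblasts. Of its 2115 and 2577 UMIs, 91.3% and 89.6% lay in them, against 75.1% and 81.3% of the UMIs of all genes, and the pooled levels of the libraries were close, at 41.1 (39.3 to 43.0) and 41.7 (39.97 to 43.4) CPM. Within the fibroblasts it was uneven. Interstitial-type fibroblasts stood at 159.8 (149 to 171) and 71.4 (67.4 to 75.7) CPM, and Cd55-type fibroblasts, scored on *Cd55*, *Stmn4*, *Efemp1*, *Fbn1* and *Mfap5*, at 94.9 (86.5 to 103.9) and 61.2 (56.8 to 65.8) CPM. The other 5 subsets lay between 11.9 and 32.1 CPM in E10-P56 and between 9.99 and 27.0 CPM in the adult pulse, so that interstitial-type and Cd55-type led in both libraries with intervals clear of the rest.

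Shares of cells were also read at equal depth. After thinning to 1500 UMIs, 19.1% (16.2 to 22.3) and 9.47% (8.25 to 10.8) of interstitial-type fibroblasts had a *Ret* UMI, against 52.2% and 33.9% unthinned. Pericyte-like cells, taken as cells that should lack it, had a thinned share of 0.216% and 0.477%, with median depths of 3390 and 3370 UMIs against 7038.5 and 7242. In the nerve, 8 and 20 *Ret* UMIs gave nerve fibroblast-like cells 39.2 (16.9 to 77.3) and 29.4 (17.9 to 45.4) CPM, close to the pooled fibroblasts at 0.954-fold and 0.705-fold. Perineurial-like cells held 8 UMIs and 1 UMI, at 7.90 (3.41 to 15.6) and 5.20 (0.132 to 29.0) CPM. Schwann-like cells held 0, which allows up to 2.87 CPM in 138 cells and 23.6 CPM in 17 cells.

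*Gfra1*, the gene of the GDNF co-receptor, was highest in the cells of the nerve. Nerve fibroblast-like cells stood at 201 (144 to 273) and 219 (185 to 257) CPM, perineurial-like cells at 191 (165 to 219) and 286 (216 to 372) CPM, and Schwann-like cells at 144 (122 to 169) and 126 (71.8 to 204) CPM. Pooled fibroblasts stood at 12.2 (11.3 to 13.3) and 47.1 (45.3 to 48.9) CPM. Every nerve gate was thus above the fibroblasts in both libraries, 16.4-fold and 4.65-fold for nerve fibroblast-like cells, 15.6-fold and 6.08-fold for perineurial-like cells and 11.8-fold and 2.67-fold for Schwann-like cells. The folds were smaller in the adult pulse, where the fibroblasts themselves carried more *Gfra1*. The intervals of nerve fibroblast-like and perineurial-like cells overlapped within each library, so their order was not set. As a mean over cells, the nerve fibroblast-like level of E10-P56 was 336 CPM.

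**Figure D2:**
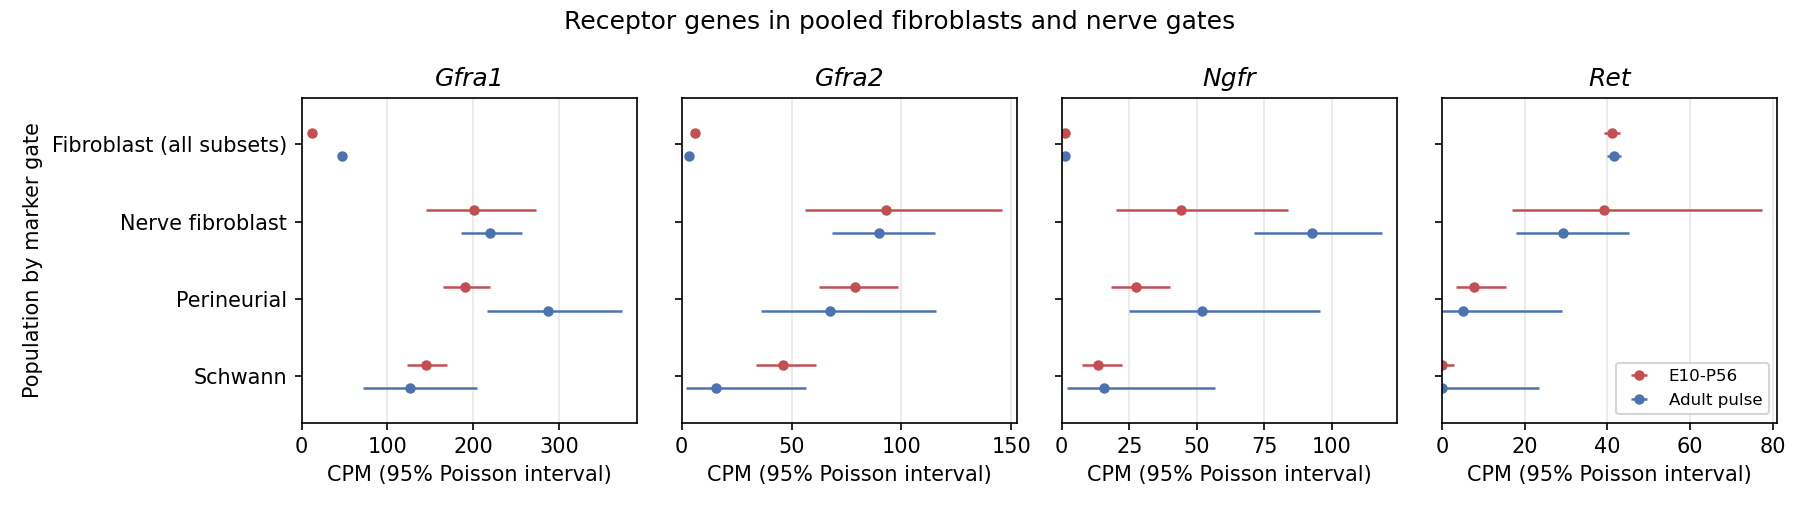
Level of *Gfra1*, *Gfra2*, *Ngfr* and *Ret* (x axis, CPM, from 0) in pooled fibroblasts and the 3 nerve gates (y axis) for E10-P56 (red) and the adult pulse (blue). Points are the level over all cells of a population and bars its 95% Poisson interval, which at 0 UMIs ends at the level 3 UMIs would give. *Gfra1* lies at 126 to 286 CPM in the nerve gates against 12.2 and 47.1 in fibroblasts, while *Ret* is at 0 in Schwann-like cells.

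Shares of cells were also read for *Gfra1*. After thinning, 28.6% (14.6 to 46.3) and 29.0% (20.4 to 38.9) of nerve fibroblast-like cells had a UMI, as did 20.8% (15.0 to 27.6) and 31.6% (17.5 to 48.7) of perineurial-like cells and 19.6% (13.3 to 27.2) and 11.8% (1.46 to 36.4) of Schwann-like cells. The unthinned shares in the 3 gates lay between 50.9% and 67.0%. Pooled fibroblasts had thinned shares of 2.51% (2.06 to 3.02) and 6.55% (5.97 to 7.17). Every nerve gate lay above these beyond counting error, except the Schwann-like cells of the adult pulse. The interval of those 17 cells held the fibroblast share. Interstitial-type fibroblasts had thinned shares of 8.21% (6.24 to 10.6) and 14.6% (13.1 to 16.2), and pericyte-like cells 0% and 0.955%. SMCP-like and endothelial-like cells held 0 UMIs of *Gfra1* in both libraries, and VSMC-like cells 6 and 0.

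Among the fibroblasts, *Gfra1* was highest in the interstitial-type subset, at 55.9 (49.6 to 62.7) and 111 (106 to 116) CPM. Comp-type fibroblasts came next in E10-P56 at 19.0 CPM (14.8 to 24.0), and Comp-type and inflammatory fibroblasts in the adult pulse, both at 28.9 CPM. The interstitial-type subset was below nerve fibroblast-like and perineurial-like cells in both libraries. In the adult pulse its interval overlapped that of the 17 Schwann-like cells.

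*Ret* and *Gfra1* were therefore highest in different cells. In interstitial-type fibroblasts, where both were present, 113 of 670 cells (16.9%, 14.1 to 19.9) and 404 of 2102 cells (19.2%, 17.6 to 21.0) had a UMI of each. *Ret* was found in 65.7% of the cells with *Gfra1* and 47.6% of those without it in E10-P56, and in 44.4% and 25.8% in the adult pulse. The cells with *Gfra1* were also deeper, with medians of 8285.5 against 6519 and 8029.5 against 6766.5 UMIs. After thinning, the *Ret* shares were 18.2% and 19.2% in E10-P56 and 12.7% and 8.91% in the adult pulse. In E10-P56 the thinned shares rested on 10 cells with both genes. Thinning also loses *Ret* or *Gfra1* from many cells that have it. Whether *Ret* and *Gfra1* gather in the same cells therefore cannot be read from the thinned shares of either library. In Schwann-like cells, 78 of 138 and 9 of 17 had *Gfra1* and 0 had *Ret*. Both genes were found in 4 of 173 and 1 of 38 perineurial-like cells and in 5 of 35 and 13 of 100 nerve fibroblast-like cells.

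*Gfra2*, the gene of the neurturin co-receptor, was high in nerve fibroblast-like, perineurial-like and pericyte-like cells. Nerve fibroblast-like cells stood at 93.2 (56.1 to 146) and 89.6 (68.5 to 115) CPM and perineurial-like cells at 79.0 (62.7 to 98.4) and 67.6 (36.0 to 116) CPM. Schwann-like cells stood at 45.9 CPM (33.9 to 60.9) in E10-P56 and, on 2 UMIs, at 15.7 CPM (1.90 to 56.7) in the adult pulse. Pericyte-like cells stood at 43.5 (35.2 to 53.2) and 62.1 (50.4 to 75.7) CPM, 7.02-fold and 19.6-fold the 6.20 and 3.18 CPM of fibroblasts. Nerve fibroblast-like and perineurial-like cells were thus above fibroblasts in both libraries, 15.0-fold and 28.2-fold for the former and 12.8-fold and 21.3-fold for the latter. Tenocyte-like cells lay between, at 28.7 (20.2 to 39.5) and 24.8 (20.3 to 30.05) CPM. SMCP-like and VSMC-like cells of E10-P56 were nearer the fibroblasts, at 7.98 and 10.5 CPM. In the adult pulse SMCP-like cells stood at 14.4 CPM (3.93 to 36.9) on 4 UMIs, and VSMC-like cells held 1 UMI. Endothelial-like cells stood at 32.7 CPM (8.91 to 83.7) on 4 UMIs and 11.4 CPM (2.34 to 33.2) on 3 UMIs. Cycling cells stood at 16.0 (12.1 to 20.7) and 31.1 (16.1 to 54.3) CPM.

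In the thinned cells, *Gfra2* was found in 8.86% (6.43 to 11.8) and 9.55% (6.91 to 12.8) of pericyte-like cells, in 12.1% (7.67 to 18.0) and 7.89% (1.66 to 21.4) of perineurial-like cells and in 0.821% and 0.465% of fibroblasts. The unthinned shares were 15.8% and 18.9%, 30.6% and 28.9%, and 4.64% and 2.07%. Nerve cells could carry both co-receptor genes, since *Gfra1* and *Gfra2* each had a UMI in 7 of 35 and 30 of 100 nerve fibroblast-like cells and in 30 of 173 and 8 of 38 perineurial-like cells.

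*Ngfr*, the gene of p75, had its highest level in nerve fibroblast-like cells of both libraries. Their interval overlapped that of perineurial-like cells in each and that of SMCP-like cells in E10-P56, so the first place was not set. Nerve fibroblast-like cells stood at 44.1 CPM (20.2 to 83.8) on 9 UMIs in E10-P56 and at 92.5 CPM (71.1 to 118) on 63 UMIs in the adult pulse. Perineurial-like cells stood at 27.7 (18.4 to 39.98) and 52.0 (25.0 to 95.7) CPM. Schwann-like cells, in which p75 marks immature and non-myelinating cells, stood at 13.4 CPM (7.33 to 22.5) in E10-P56 and held 2 UMIs in a single cell of the adult pulse, which is not among the cells left without the highest Scrublet (doublet) scores. Pooled fibroblasts stood at 1.19 (0.901 to 1.55) and 1.06 (0.811 to 1.37) CPM, so nerve fibroblast-like cells were 37.0-fold and 86.9-fold higher and perineurial-like cells 23.2-fold and 48.9-fold higher.

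Among nerve populations the Schwann-like gate, placed on myelin genes, was thus the lowest for *Ngfr* in both libraries, although its interval overlapped that of perineurial-like cells in each. Outside the nerve, SMCP-like cells of E10-P56 were second in order, above perineurial-like and Schwann-like cells, although their interval overlapped that of both. This rank was not stable. Perineurial-like cells were second at 5% mitochondrial UMIs, without the highest Scrublet scores, with clusters, with the margin and as a mean over cells. The SMCP-like cells held 37 *Ngfr* UMIs in 26 of 148 cells, at 29.5 CPM (20.8 to 40.7), and such cells stood at 7.21 CPM (0.873 to 26.0) on 2 UMIs in the adult pulse. Apoe-type fibroblasts stood at 4.65 CPM (3.36 to 6.26) in E10-P56, 13.5-fold the other fibroblasts, and at 1.80 CPM (0.899 to 3.22) in the adult pulse, 1.85-fold.

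*Gfra1*, *Gfra2* and *Ngfr* were the genes at least 2-fold above pooled fibroblasts in nerve fibroblast-like and perineurial-like cells of both libraries. In nerve fibroblast-like cells, 6 of the 8 genes had more than 3 UMIs on both sides and could be compared, and 3 were higher and 0 lower in either library. Of all features compared in the same way, 18.7% were higher and 3.85% lower in E10-P56, and 9.89% and 4.30% in the adult pulse. In perineurial-like cells 5 and 4 of the 8 could be compared, 3 were higher in each library and 1 was lower in each, against 19.0% and 22.4% of all features higher and 6.84% and 5.78% lower. The lower gene was *Ret* in E10-P56 (0.192-fold) and *Lifr* in the adult pulse (0.297-fold, on 7 UMIs). In Schwann-like cells 3 of 4 that could be compared were higher in E10-P56 and 1 of 2, *Gfra1*, in the adult pulse, against 22.0% and 24.4% of all features. A gene that passes the minimum of 3 UMIs in a small gate is likely to be one that is high there, so these counts describe the genes and are no support.

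*Lifr*, the gene of the leukemia inhibitory factor receptor, was present in every population of both libraries. Interstitial-type fibroblasts stood at 257 (243 to 271) and 259 (252 to 267) CPM, the highest of the 16 populations in each, although the interval of the endothelial-like cells overlapped theirs in E10-P56. Pooled fibroblasts stood at 54.6 (52.5 to 56.8) and 122 (120 to 125) CPM. The other 6 subsets lay between 15.6 and 57.4 CPM in E10-P56 and between 32.9 and 113 CPM in the adult pulse. The interstitial-type subset was 8.70-fold and 3.93-fold above the other fibroblasts. Thinned shares were 27.3% (24.0 to 30.9) and 29.9% (28.0 to 31.9), against 59.3% and 65.4% unthinned.

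Nerve fibroblast-like cells followed with 186.5 CPM (156 to 222) of *Lifr* in the adult pulse but 73.6 CPM (41.2 to 121) in E10-P56, on 15 UMIs. The second value was 124 CPM as a mean over cells. Perineurial-like cells stood at 65.2 (50.4 to 82.9) and 36.4 (14.6 to 75.1) CPM and Schwann-like cells at 62.2 (48.0 to 79.3) and 86.4 (43.1 to 155) CPM. Endothelial-like cells stood at 221 (145 to 321) and 151 (108 to 206) CPM. *Lifr* and *Il6st*, the signalling partner of its product, each had a UMI in 44.3% (40.5 to 48.2) and 44.6% (42.5 to 46.8) of interstitial-type fibroblasts. After thinning, *Lifr* was found in 28.4% of the interstitial-type cells with *Il6st* and 26.8% of those without it in E10-P56. In the adult pulse the shares were 30.2% and 29.9%, so they were close at equal depth in both libraries. Thinning loses either gene from many cells that have it, so whether the 2 genes gather in the same cells cannot be read from these shares.

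**Figure D3:**
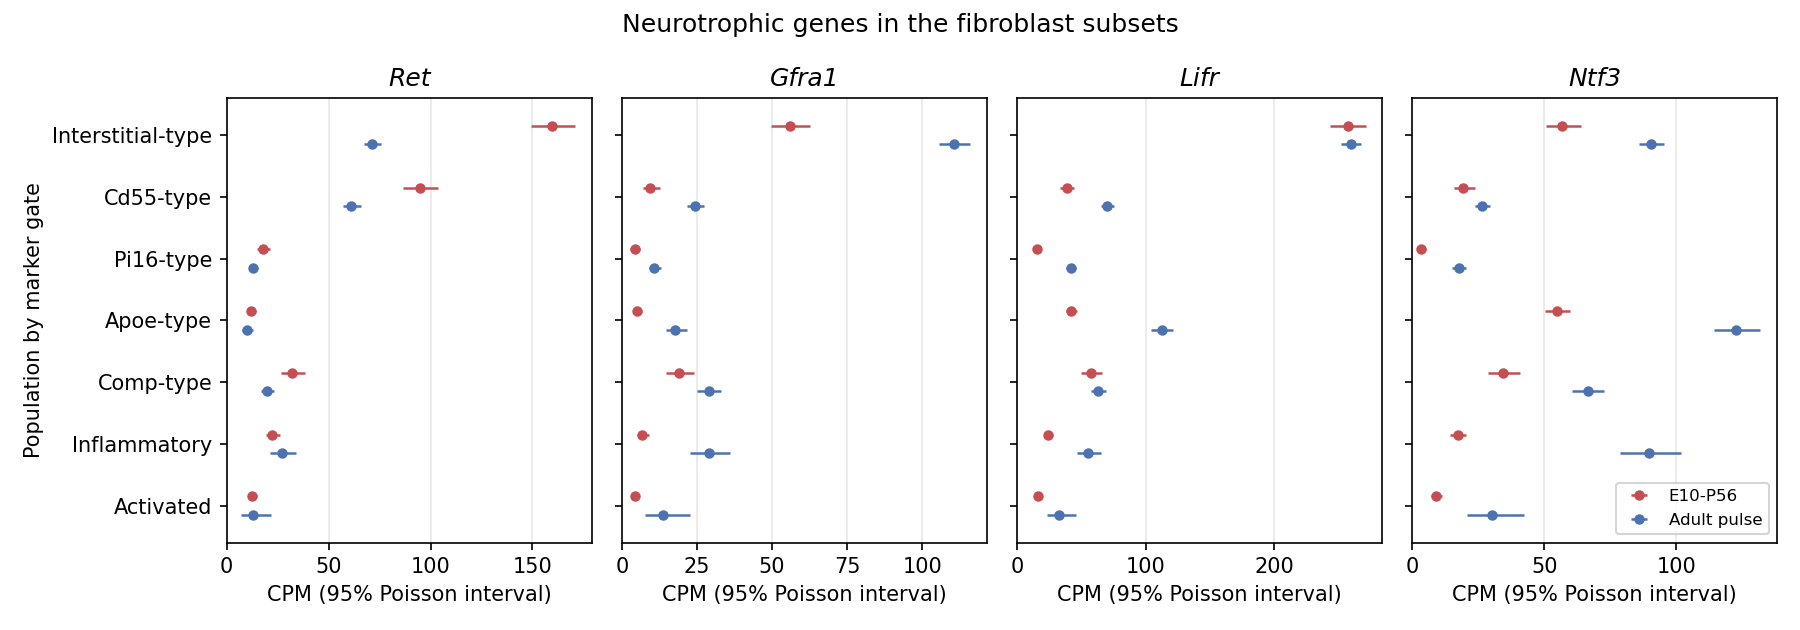
Level of *Ret*, *Gfra1*, *Lifr* and *Ntf3* (x axis, CPM, from 0) in the 7 fibroblast subsets (y axis) for E10-P56 (red) and the adult pulse (blue). Points are levels over all cells of a subset and bars 95% Poisson intervals. Interstitial-type fibroblasts lead for *Ret*, *Gfra1* and *Lifr* in both libraries, and Apoe-type fibroblasts lead for *Ntf3* in the adult pulse.

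Within the fibroblasts, the interstitial-type subset held 3 of the receptor genes together. *Ret*, *Gfra1* and *Lifr* were at least 2-fold above the other fibroblasts in both libraries, by 6.05-fold and 2.43-fold, 8.19-fold and 5.34-fold, and 8.70-fold and 3.93-fold. With *Ntf3* in E10-P56 (2.45-fold) and *Ngfr* in the adult pulse, 4 of the 6 genes compared were higher in each library, against 7.75% and 5.58% of all features. *Ngfr* does not set this subset apart. In the adult pulse it stood at 1.67 CPM (1.10 to 2.43) there, against 1.89 CPM in Comp-type and 1.80 CPM in Apoe-type fibroblasts, with overlapping intervals. In E10-P56 its 5 UMIs in this subset came from 1 cell. In Pi16-type fibroblasts, scored on *Pi16*, *Dpp4*, *Sema3c* and 4 further genes of adventitial fibroblasts, 4 of 5 and 5 of 5 were at least 2-fold lower, against 6.32% and 7.31% of all features. *Ret*, *Gfra1*, *Lifr* and *Ntf3* were the 4 that were lower in both. They were also lower in activated fibroblasts of both libraries (5 of 7 and 4 of 5 lower, against 5.39% and 3.77%). In Apoe-type fibroblasts *Ntf3* was 2.73-fold and 2.23-fold higher (2 of 7 and 1 of 5 genes compared were higher, against 5.76% and 5.65% of all features), and *Ret* and *Gfra1* were at least 2-fold lower in both libraries (3 of 7 and 2 of 5 lower, against 4.38% and 3.96%).

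In pericyte-like cells, *Bdnf* and *Gfra2* were higher and *Ret* and *Ntf3* lower than in fibroblasts in both libraries. *Ret* was 0.0779-fold and 0.198-fold and *Ntf3* 0.170-fold and 0.213-fold. Of 6 genes compared in each library, 3 and 2 were higher, against 19.2% and 19.5% of all features, and 2 and 3 lower, against 9.34% and 9.64%. Pericyte-like cells had fibroblast marker RNA at a summed level of 3423 and 4787 CPM over 8 of 8 markers. Without the cells of highest Scrublet score, their *Ntf3* level fell to 0 and 3.62 CPM and their *Ret* level to 2.01 and 2.89 CPM, from 4.58 and 13.3 and from 3.20 and 8.24. Tenocyte-like cells had *Bdnf*, *Gfra2* and *Ngfr* higher and *Ret* lower in both libraries. Of 7 and 8 genes compared, 3 and 4 were higher, against 13.6% and 11.5% of all features. Lower were 1 and 4, against 6.94% and 9.85%. *Gdnf* was also higher in the adult pulse, on 4 UMIs. A comparison needed more than 3 UMIs, or over 1.37 and 1.90 CPM in pericyte-like and 2.32 and 0.715 CPM in tenocyte-like cells. *Bdnf*, at 0.319 and 0.0722 CPM in fibroblasts, could thus only be called higher in both gates. So could *Gdnf* in tenocyte-like cells of the adult pulse and *Ngfr* in those of E10-P56. These counts describe the genes and are no support.

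**Figure D4:**
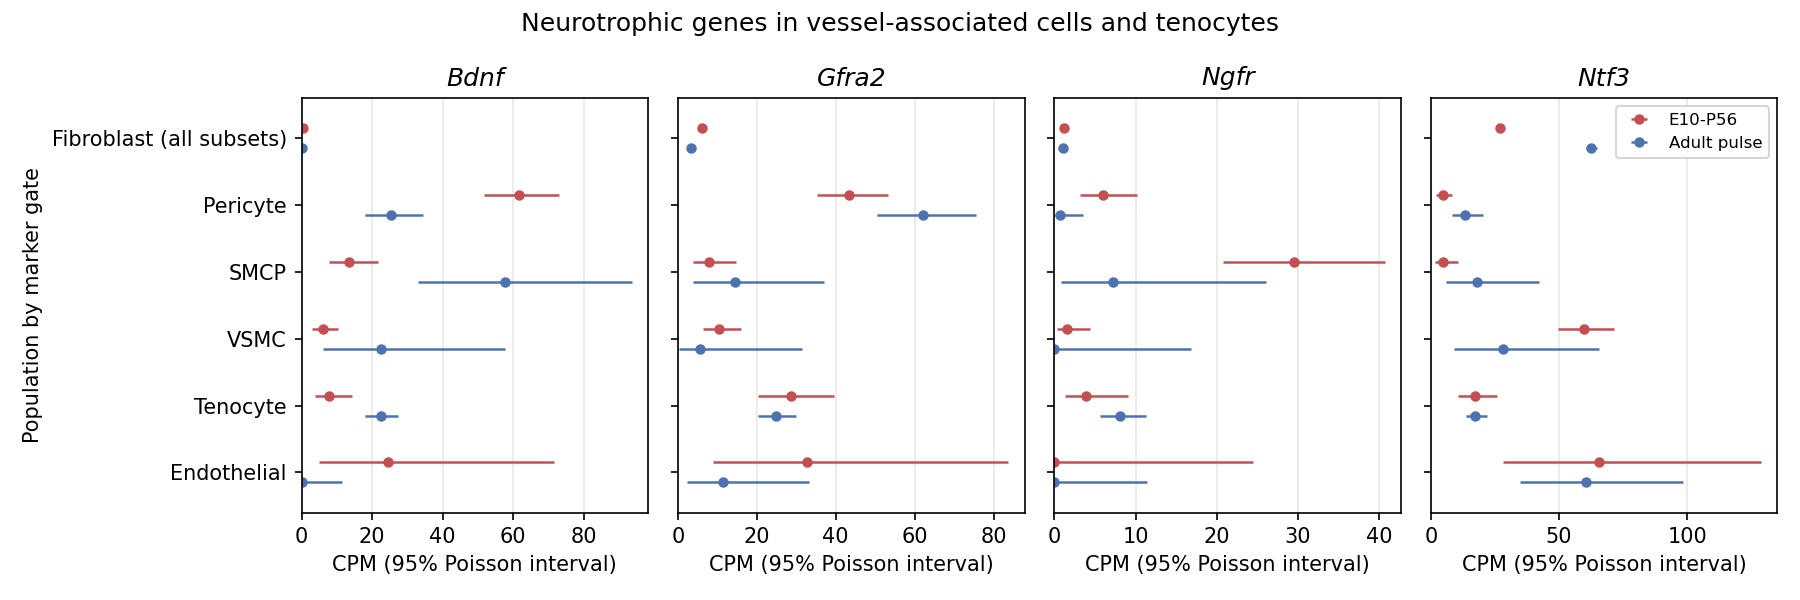
Level of *Bdnf*, *Gfra2*, *Ngfr* and *Ntf3* (x axis, CPM, from 0) in pooled fibroblasts, pericyte-like, SMCP-like, VSMC-like, tenocyte-like and endothelial-like cells (y axis) for E10-P56 (red) and the adult pulse (blue). Points are levels over all cells of a population and bars 95% Poisson intervals, which at 0 UMIs end at the level 3 UMIs would give. *Bdnf* and *Gfra2* are near 0 in fibroblasts and higher in pericyte-like cells, and the bars of the 24 VSMC-like cells of the adult pulse are wide.

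The partners of these genes were taken from a list of 25 further ligands and receptors of the GDNF, neurotrophin and interleukin-6 families. Of these, 20 had at least 20 UMIs over both libraries, and *Pspn*, *Gfra3*, *Ntf5*, *Cntf* and *Osm* did not. In perineurial-like cells 6 could be compared in both libraries. *Ntrk3*, the gene of the TRK kinase for the *Ntf3* product, stood at 51.4 and 41.6 CPM there against 3.11 and 6.57 in fibroblasts. *Cntfr* stood at 85.0 and 52.0 CPM against 16.5 and 21.9, and *Il6st* at 513 and 395 CPM against 228 and 166. These 3 were at least 2-fold higher in both, against 12.2% of all features compared in both libraries. With 38 such cells in the adult pulse, a comparison needed more than 3 UMIs, or more than 15.6 CPM. *Ntrk3*, at 6.57 CPM in fibroblasts, could thus only be called higher there. *Ntrk2*, the gene of the kinase for the *Bdnf* product, was among the 2 that were at least 2-fold lower in both, against 2.89%. In Schwann-like cells *Ntrk3* was the 1 of 3 that was higher in both, at 28.7 and 31.4 CPM, against 14.2% of all features. With 17 such cells in the adult pulse, a comparison needed more than 3 UMIs, or more than 23.6 CPM. *Ntrk3* could thus only be called higher there too, and the counts of these 2 gates are no support. *Ncam1* stood at 60.3 CPM in Schwann-like cells of E10-P56 and, on 2 UMIs, 15.7 CPM in the adult pulse. In nerve fibroblast-like cells 9 could be compared, and 0 were higher or lower in both, against 5.78% and 1.52% of all features.

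Of the same list, 2 genes, *Sort1* among them, were higher and *Il6* was lower in interstitial-type fibroblasts of both libraries, among 19 compared, against 3.01% higher and 2.51% lower over all features. In pericyte-like cells *Sort1*, which encodes sortilin, a partner of p75, stood at 46.2 and 84.9 CPM against 8.16 and 9.55 in fibroblasts. It was 1 of 2 that were higher in both libraries, and 5 of the 10 compared were lower, among them *Cntfr*, *Il11ra1*, *Il6ra* and *Ncam1*, against 13.3% and 6.64% of all features. *Ntrk2* stood at 231 and 209 CPM in SMCP-like cells and at 119 and 181 CPM in Apoe-type fibroblasts, against 76.8 and 76.3 CPM over all fibroblasts. Of the ligands for *Lifr* and *Gfra2*, *Lif* had 331 and 381 UMIs, 89.7% and 89.0% of them in fibroblasts (75.1% and 81.3% for all genes), and *Nrtn* had 61 and 101 UMIs. In tenocyte-like cells *Nrtn* stood at 4.65 and 6.68 CPM, against 0.85 and 1.19 in fibroblasts.

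The libraries differed in the time of labelling, and also in animals, TAM doses and Cell Ranger version. Progesterone, caesarean delivery and cross-fostering are described in the methods for tracing from the embryo to adulthood. If the adult pulse in the text of the study is this library, the day of collection differed too. The labels do not say which kit version each library used, and the methods name v3 for cells of adult muscle. The effects of these differences cannot be told apart. Over pooled fibroblasts the E10-P56 level was 0.260 (0.237 to 0.285) of the adult pulse for *Gfra1*, 0.430 (0.403 to 0.459) for *Ntf3* and 0.446 (0.426 to 0.467) for *Lifr*. It was 0.988 (0.929 to 1.05) for *Ret*, 1.12 (0.763 to 1.64) for *Ngfr* and 1.95 (1.61 to 2.37) for *Gfra2*. Of the 6 genes with at least 100 UMIs, 3 were thus at least 2-fold lower and 0 at least 2-fold higher in E10-P56, against 4.61% and 4.95% of all features compared. The make-up of the fibroblasts also differed. Interstitial-type fibroblasts, the highest subset for *Gfra1* and *Lifr*, were 11.0% of the kept E10-P56 cells and 24.5% of those of the adult pulse.

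Within subsets the values parted from the pooled ones. In interstitial-type fibroblasts *Ret* was 2.24-fold (2.04 to 2.45) the level of the adult pulse, whereas *Lifr* was at 0.990 (0.930 to 1.05). Of the 5 genes compared in that subset, *Ret* was the 1 past 2-fold, against 2.56% of all features higher and 2.71% lower. *Ret* was also higher in Cd55-type (1.55-fold), Comp-type (1.61-fold) and Pi16-type (1.37-fold) fibroblasts, with intervals above 1, while its pooled level was close to that of the adult pulse. *Gfra1* was below the adult pulse in the 6 subsets with at least 100 UMIs, between 0.237 in inflammatory and 0.658 in Comp-type fibroblasts, and *Ntf3* in all 7, between 0.192 in inflammatory and 0.735 in Cd55-type fibroblasts. *Lifr* was between 0.372 and 0.551 in 5 subsets, and in interstitial-type and Comp-type (0.911) fibroblasts its interval held 1.

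**Figure D5:**
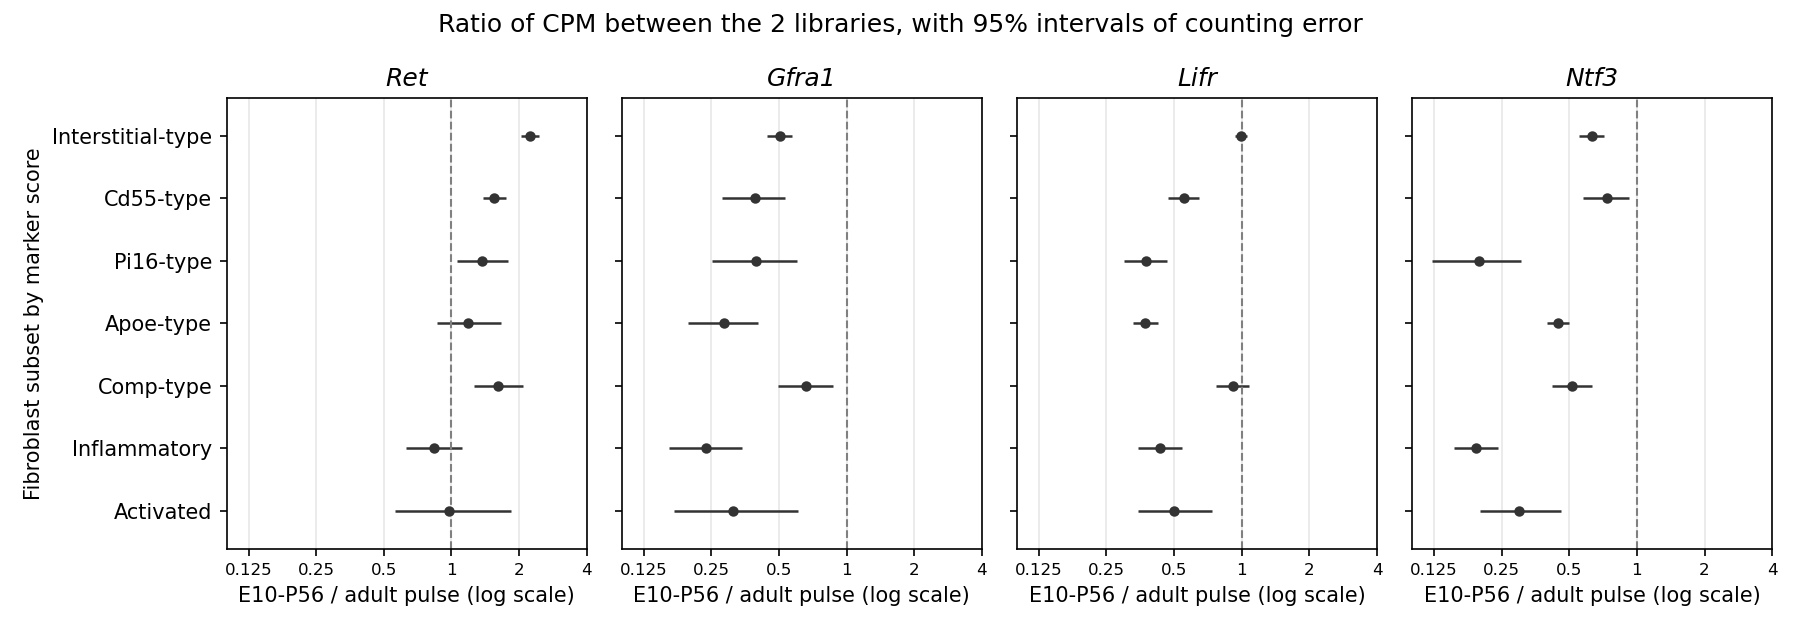
Ratio of the CPM of E10-P56 to that of the adult pulse (x axis, log scale) for *Ret*, *Gfra1*, *Lifr* and *Ntf3* in the 7 fibroblast subsets (y axis). Points are ratios, bars 95% intervals of counting error and the dashed line a ratio of 1. *Gfra1* and *Ntf3* lie below 1, *Gfra1* in activated fibroblasts on 43 and 15 UMIs, under the minimum for a comparison, and *Ret* lies above 1 in interstitial-type fibroblasts at 2.24.

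In the nerve gates the libraries were closer for *Gfra1* than in pooled fibroblasts. Its level in E10-P56 was at 0.919 (0.634 to 1.31) of the adult pulse in nerve fibroblast-like cells, 0.666 (0.491 to 0.916) in perineurial-like cells and 1.15 (0.686 to 2.06) in Schwann-like cells. The interval for perineurial-like cells lay below 1. *Lifr* in nerve fibroblast-like cells was at 0.394, the 1 of 2 compared there that passed 2-fold, against 5.11% of all features. In pericyte-like cells *Bdnf* was 2.44-fold (1.70 to 3.56) higher in E10-P56, the 1 of 3 genes compared there that passed 2-fold, against 2.22% of all features, and *Gfra2* was at 0.700. In tenocyte-like cells *Bdnf* was lower in E10-P56, at 0.346 (0.160 to 0.664), the 1 of 3 past 2-fold, against 2.73% of all features.

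The genes whose levels ran most like each of these were sought over 31 points, each a population of at least 20 cells in 1 library, among 13274 genes. Points of the same library share its depth and its free RNA, so Pearson's r of log2(CPM + 1) is a description here. *Gfra1* ran most like *Flrt1* (r = 0.912), *Col23a1* (0.906) and *Plxnc1* (0.856), *Ret* most like *Atf5* (0.873), *Pdgfra* (0.870), which is itself a fibroblast gate marker, and *Plau* (0.869), and *Ngfr* most like *Tbx18* (0.833), *Tec* (0.811) and *Tgif2* (0.804). *Bdnf* ran most like *Gpcpd1* (0.908), *Palm2* (0.907) and *Cacnb2* (0.895), *Gfra2* most like *Laptm4b* (0.831), *Sipa1l1* (0.829) and *Trib2* (0.819), *Ntf3* most like *Adh1* (0.809), *Chst7* (0.740) and *Eln* (0.719), and *Lifr* most like *Cers4* (0.740), *Mospd1* (0.730) and *Kmt2e* (0.714). Between the genes themselves r was 0.580 for *Ngfr* and *Gfra2* and 0.431 for *Ret* and *Gfra1*, and it was -0.579 for *Ret* and *Bdnf*. *Gdnf*, with 50 UMIs in all, was left out of this comparison.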

How the data were processed

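For each library the authors deposited a matrix of UMI counts (genes by barcodes) without any scaling. Per the methods it came from Cell Ranger with an altered mm10 reference. The file headers name version 3.0.2 in the adult pulse and 5.0.0 in E10-P56. The labels give the 10x kit as v2 or v3, and the methods name v3 for cells of adult muscle. Barcodes below the minimum of the study were present.

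The genes, marker lists and partner list were chosen with earlier results of these data known. Cells under 1500 UMIs (1310 and 465 barcodes) or over 10% mitochondrial UMIs (839 and 163) were left out. The first limit is the study's. The gate thresholds (3 markers, a score of 1.5 SD, a lead of 0.5 SD) were set after the data had been seen. Scores were means over markers of log(1 + UMIs per 10000), with each marker scaled to SD units over the kept cells of both libraries. For the fibroblast subsets the markers were scaled over the fibroblasts alone, and each subset score was then divided by its own SD. Cells scoring 0.75 to 1.5 SD (239 and 500) and cells of no gate (60 and 53) were not described, nor were the non-myelinating Schwann gate (10 and 33 cells), in which *Sox10* had 0 and 5 UMIs, or the osteochondral, myogenic and immune gates. The non-myelinating Schwann gate also had *Apod*, a nerve fibroblast marker, at 11088.5 and 8530 CPM and *Pdgfra* at 694 and 657 CPM. In nerve fibroblast-like cells these stood at 17254.5 and 16529 CPM and at 1015 and 809 CPM. The name of that gate is thus only that of its marker list, and it may hold nerve fibroblasts. 1 marker was not listed in the files. No doublets were removed in the values reported.

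UMIs were summed over a population and divided by its total to give CPM, with exact Poisson intervals. Intervals of shares are exact Clopper-Pearson ones, and cells were thinned to 1500 UMIs first. Limits for a count of 0 are 3 UMIs of the total. A gene was called higher or lower at 2-fold where both sides had more than 3 UMIs, and between libraries where both together had at least 100 UMIs. Named genes were the 8, partners with at least 20 UMIs over both libraries and the 3 genes most like each of the 8 with at least 100 UMIs. The levels of some partners are not reported here. With 1 library per labelling time no test was run. Gating and summed CPM were tested on simulated cells drawn from the summed profile of each population. These held no doublets, no added RNA of other cells and no spread between cells beyond depth and sampling. The other steps were not simulated. Python 3.11.15, numpy 2.4.6, scipy 1.17.1, pandas 2.3.3 and scanpy 1.11.5 (Scrublet, and clustering with leidenalg 0.10.2) were used. Promoter sequences are RefSeq's for GRCm38.p6. The 9 alternatives for the levels are described in the closing section.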

Additional observations from a re-analysis of the deposited data

Results flagged for a closer look

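The difference between VSMC-like cells and pooled fibroblasts in *Ntf3* had opposite directions in the 2 libraries. The study reported VSMCs from its E10-P56 experiment only, and clustering gave no VSMC cluster in the adult pulse. The identity of the adult pulse cells in this gate thus rests on the marker gate alone. The level in VSMC-like cells was 2.22-fold that of fibroblasts in E10-P56 (120 UMIs in 217 cells) and 0.450-fold in the adult pulse (5 UMIs in 24 cells). With 1 library per labelling time the difference between the libraries was not tested. The level in the adult pulse had an interval of 9.14 to 65.7 CPM, which holds the 62.6 CPM of its fibroblasts, and the ratio of the libraries in VSMC-like cells was 2.12 (0.885 to 6.66).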

How the results depend on the processing

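No paired analysis was possible because each labelling time had 1 library and no test was run. In both libraries, the number of the 8 genes that were highest in a nerve gate (3) or in interstitial-type fibroblasts (2) did not change under any of the 9 alternatives. *Ret* and *Lifr* were highest in interstitial-type fibroblasts and *Gfra2* and *Ngfr* in nerve fibroblast-like cells under all 9 in both libraries, whereas *Gfra1* moved between nerve fibroblast-like and perineurial-like cells under 3 alternatives for E10-P56 and 1 for the adult pulse. For *Gfra2* and *Ngfr* the intervals of nerve fibroblast-like and perineurial-like cells still overlapped in both libraries as reported. The log2 ratio of *Lifr* in interstitial-type fibroblasts, -0.015 as reported, changed sign to 0.013 with no mitochondrial limit, 0.0038 at 5% mitochondrial UMIs, 0.40 when cells were placed by clusters, 0.11 with cells whose best gate led by the margin, and 0.11 as a mean over cells, so it has no direction. Of 84 levels, those outside their interval numbered 14 of 76 with clusters, 12 with the margin, 9 each without mitochondrial and ribosomal protein genes, as a mean over cells and without the 5% of cells with the highest Scrublet scores, 4 at a minimum of 3000 UMIs, and 0 for both mitochondrial limits and without shared barcodes. Scrublet's own threshold marked 15 and 4 cells, too few to be of use. Clustering gave no SMCP, VSMC or Schwann cluster in the adult pulse, so its 62 SMCP-like, 24 VSMC-like and 17 Schwann-like cells have no such check. Depth limits *Gdnf* in all populations and every gene in the small gates.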
